A study of Mus musculus with 155 samples.

Results

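The genes described here are those of histone H3.3 and of the proteins that escort it onto DNA: H3f3a and H3f3b, which encode the same histone, Hira, Ubn1, Ubn2 and Cabin1 of the HIRA complex, Asf1a and Asf1b, which hand histones on to it, and Daxx and Atrx. They were chosen by name, and all 10 were found among the 55471 genes of the count tables. RNA-Seq was done in mouse KH2 embryonic stem cells (ESCs) that carry, besides their own H3.3 genes, a single SNAP-HA-tagged H3.3 copy placed at one landing site and switched on by doxycycline (Dox). The copy was wild type (WT-H3.3), had lysine 27 changed to methionine (H3.3K27M, the change found in diffuse midline glioma) or to leucine (H3.3K27L). ESCs were grown in serum with LIF and 2i, and libraries were made after 4, 8, 24 and 72 h of Dox from the 3 lines and from the WT-H3.3 line given GSK343, an inhibitor of the PRC2 enzyme EZH2, with 2 libraries for each arm and time (32 in all). The 3 lines were also treated with 1 µM retinoic acid (RA) without LIF and 2i and sampled at 24 and 72 h of Dox (6 libraries, 1 each). WT-H3.3 and H3.3K27M cells were further differentiated towards oligodendrocyte progenitor cells (OPCs) through embryoid bodies, RA and purmorphamine, and sampled at 24 and 72 h of Dox (4 libraries, 1 each). Every RNA-Seq library received Dox, so the tables hold no cells without the added copy, and reads of that copy cannot be told apart from those of the cell's own H3.3 genes. Lines were picked as hygromycin-resistant colonies, so a line can differ from another by its clone as well as by its histone.

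H3.3 is the H3 variant that is made and laid down outside S phase as well as within it, while the canonical H3 proteins are made in S phase and placed behind the fork by the CAF-1 chaperone. The HIRA complex places H3.3 at promoters, enhancers and gene bodies, and UBN1 and UBN2 are the subunits that recognise the variant. DAXX binds H3.3 directly, and with the remodeller ATRX it places H3.3 at telomeres, pericentric repeats and other silent repeats. ASF1A and ASF1B carry H3-H4 dimers to HIRA or to CAF-1, and ASF1B is the form tied to dividing cells.

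All 10 are protein-coding genes, placed in genome build NCBIM37 (mm9) as follows. The histone genes are H3f3a (ENSMUSG00000060743.12) at chr1:182730963-182744074 on the minus strand and H3f3b (ENSMUSG00000016559.14) at chr11:115883226-115889276 on the minus strand. The HIRA complex genes are Hira (ENSMUSG00000022702.16) at chr16:18877130-18970402 on the plus strand, Ubn1 (ENSMUSG00000039473.8) at chr16:5050161-5086378 on the plus strand, Ubn2 (ENSMUSG00000038538.17) at chr6:38383925-38474825 on the plus strand and Cabin1 (ENSMUSG00000020196.10) at chr10:75108855-75227102 on the minus strand. The ASF1 genes are Asf1a (ENSMUSG00000019857.7) at chr10:53316767-53329019 on the plus strand and Asf1b (ENSMUSG00000005470.8) at chr8:86479406-86494096 on the plus strand. The last pair is Daxx (ENSMUSG00000002307.16) at chr17:34046359-34052534 on the plus strand and Atrx (ENSMUSG00000031229.16) at chrX:102992954-103124736 on the minus strand.

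The 2 H3.3 genes encode one protein in different letters. Over the 411 bases of coding sequence H3f3b matched H3f3a at 316 (76.9%), so reads from their coding parts can be told apart. The windows below show this around the codon for lysine 27 (capitals), counted from the first residue of the mature histone; each is 57 bases of a coding exon, read 5′ to 3′ on the coding strand from the same build. H3f3a lies at chr1:182741947-182742003 on the minus strand and H3f3b at chr11:115885213-115885269 on the minus strand, where it differs at 10 bases. H3f3a-ps1, an X-linked processed copy of H3f3a, lies at chrX:99019908-99019964 on the plus strand and differs at 1 base.
H3f3a: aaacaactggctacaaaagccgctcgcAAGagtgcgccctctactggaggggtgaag
H3f3b: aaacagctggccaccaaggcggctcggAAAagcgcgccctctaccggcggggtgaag
H3f3a-ps1: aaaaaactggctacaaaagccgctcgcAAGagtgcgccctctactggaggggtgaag
Over the whole coding sequence H3f3a-ps1 was 98.3% the same as H3f3a, and the copies H3f3a-ps2 and H3f3c were 98.8% and 99.0% the same. Reads from the coding part could therefore be shared between H3f3a and its copies, which makes H3f3a counts less certain than H3f3b counts.

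The promoters of the members that moved most between OPC lines, and that of H3f3b for contrast, are given for 250 bases before to 50 after the start site (RefSeq, build GRCm38.p6). Capitals mark the CCAAT box, searched as CCAAT on both strands. H3f3a is at chr1:180813556-180813855 on the minus strand, H3f3b at chr11:116024455-116024754 on the minus strand, Hira at chr16:18876500-18876799 on the plus strand and Asf1b at chr8:83955444-83955743 on the plus strand.
H3f3a: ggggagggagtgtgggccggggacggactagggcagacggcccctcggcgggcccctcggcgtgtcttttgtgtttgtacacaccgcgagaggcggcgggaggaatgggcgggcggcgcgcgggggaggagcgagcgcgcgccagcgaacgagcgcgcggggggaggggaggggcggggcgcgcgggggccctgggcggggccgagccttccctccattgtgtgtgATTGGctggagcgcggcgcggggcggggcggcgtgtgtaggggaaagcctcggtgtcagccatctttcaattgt
H3f3b: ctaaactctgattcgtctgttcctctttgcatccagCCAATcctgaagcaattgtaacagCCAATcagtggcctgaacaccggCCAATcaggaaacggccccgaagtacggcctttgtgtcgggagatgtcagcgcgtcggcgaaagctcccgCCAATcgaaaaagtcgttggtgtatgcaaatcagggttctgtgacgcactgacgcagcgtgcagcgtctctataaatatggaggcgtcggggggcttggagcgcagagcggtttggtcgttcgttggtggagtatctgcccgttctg
Hira: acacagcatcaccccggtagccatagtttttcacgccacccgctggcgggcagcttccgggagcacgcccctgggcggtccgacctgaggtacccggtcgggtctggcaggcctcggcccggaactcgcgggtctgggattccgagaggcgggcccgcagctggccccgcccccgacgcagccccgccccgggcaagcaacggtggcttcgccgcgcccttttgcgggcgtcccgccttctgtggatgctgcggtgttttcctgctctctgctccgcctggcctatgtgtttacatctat
Asf1b: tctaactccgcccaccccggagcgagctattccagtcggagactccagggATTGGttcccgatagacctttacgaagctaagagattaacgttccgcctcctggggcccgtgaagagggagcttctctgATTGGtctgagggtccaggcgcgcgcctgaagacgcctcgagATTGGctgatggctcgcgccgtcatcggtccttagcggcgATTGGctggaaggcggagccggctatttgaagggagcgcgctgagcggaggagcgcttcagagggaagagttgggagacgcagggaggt
The H3f3b and Asf1b windows held 4 CCAAT matches each, the H3f3a window 1 and the Hira window 0, and 37.4% of the 32851 promoters of the table held at least 1. All 4 windows were rich in CpG, with 39 in H3f3a, 24 in H3f3b, 31 in Hira and 27 in Asf1b against a median of 7 over all promoters. All members had a promoter in the table, and of the rest Atrx also held 4 CCAAT matches while Ubn2 held 0.

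Total counts per library ran from 1247934 to 21161392 in ESCs with 1 exception, from 2239137 to 22269533 in RA-treated cells and from 7499258 to 12387113 in OPCs. The exception, H3.3K27L ESCs at 72 h, replicate 2, had 68378 counts, and ESC ranges are given without it (31 libraries). Levels are CPM, counts scaled to a fixed library total (counts per 1000000), after TMM scaling, which evens out library composition. The stem cell markers Pou5f1 and Nanog averaged 634 and 1244 CPM in ESCs. In RA-treated cells Pou5f1 averaged 3.26 CPM at 24 h and 0.0900 at 72 h, and the RA target Cyp26a1 327 and 529 CPM, but the neural progenitor markers Pax6 (18.0 and 23.7 CPM) and Nes (256 and 41.6 CPM) were modest. Against ESCs all 7 tested RA or neural progenitor markers were higher at 24 h (median log2 4.05, where 68.7% of all genes passed). At 72 h 6 of them were higher and 0 lower (median 4.25, 74.7%). A list of 7 extraembryonic endoderm markers summed to 334 to 1403 CPM in RA-treated cells, against 4.05 to 15.5 CPM in ESCs. Against ESCs all 7 were higher at 24 and 72 h (medians 7.19 and 7.39), where 68.7% and 74.7% of all genes passed. Of 6 fibroblast markers 5 were higher and 0 lower at each time (medians 7.43 and 6.06). These cells thus carried endoderm and fibroblast markers besides those of the neural progenitors that the study names. OPCs had Olig1 and Olig2 (158 and 301 CPM in WT-H3.3, 604 and 957 CPM in H3.3K27M), while Sox10 averaged 2.64 and 0.324 CPM and Pdgfra 19.3 and 0.653 CPM.

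In ESCs H3f3b was the most abundant member. It averaged 578 ± 77.3 CPM (SD, n = 31), against 111 ± 28.3 for H3f3a, and made up 83.9% of the counts of the pair. Per kilobase of exon, the scale on which genes can be ranked, H3f3b stood at 194 ± 26.0 CPM per kb. It was followed by Daxx (34.1 ± 4.15), H3f3a (31.7 ± 8.06), Asf1b (28.3 ± 3.86), Atrx (26.9 ± 10.2) and Asf1a (25.5 ± 4.22), and neighbours among these 5 differed by less than their spread. Cabin1 (11.3 ± 2.60) and Ubn1 (8.57 ± 1.10) came next, and Hira (5.75 ± 0.70) and Ubn2 (3.36 ± 0.854) were the lowest. The study names a 3′-end kit and a whole-transcript kit without saying which library used which. A 3′-end library does not scale with length, so this order rests on reads that cover whole transcripts.

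**Figure D1:**
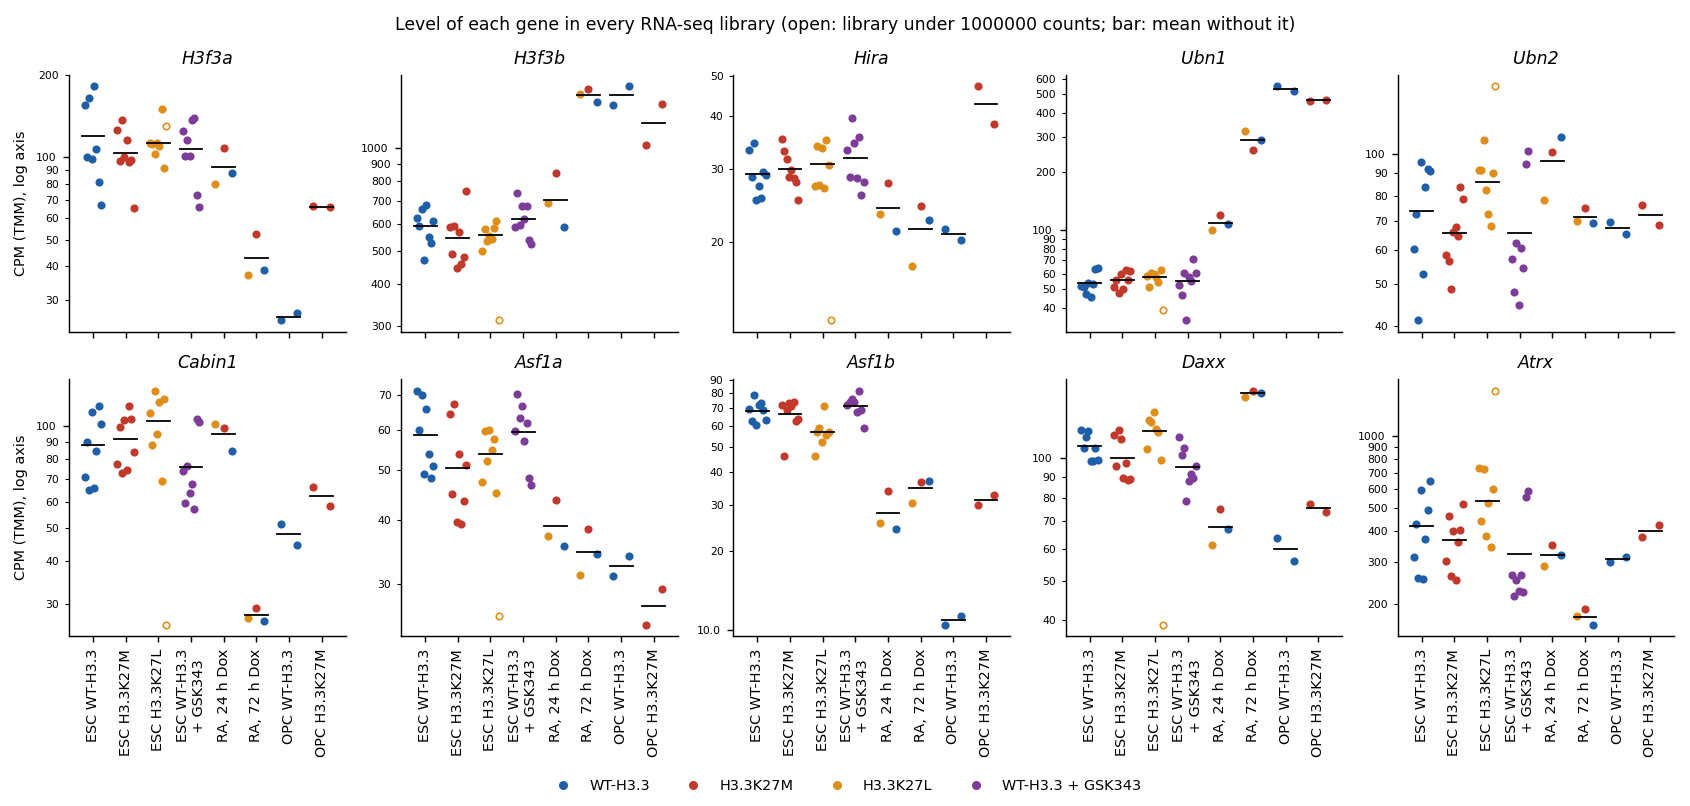
Levels of the 10 genes in every RNA-Seq library, as TMM-scaled CPM on a log axis, by cell type and line, or Dox time in RA; each point is 1 library, open points mark the library under 1000000 counts (its Asf1b count of 0 is not drawn), bars are group means without it, and colour marks the line. H3f3b lies between 444 and 747 CPM in ESCs and between 1019 and 1518 CPM in OPCs, and Ubn1 climbs from about 55.3 CPM in ESCs to 461 to 549 CPM in OPCs.

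The first question was whether a mutant H3.3 shifts expression of the H3.3 genes and chaperones in undifferentiated cells. In H3.3K27M against WT-H3.3 ESCs none of the 10 passed (edgeR's quasi-likelihood test over all genes, Benjamini-Hochberg adjusted p under 0.05), where 0.0143% of 14012 genes did. H3f3a ran from 67.1 over a median of 104 to 182 CPM in the 8 WT-H3.3 libraries and from 65.2 over 98.6 to 136 CPM in the 8 H3.3K27M libraries. These ranges overlapped almost wholly, and the log2 difference was -0.15 (95% interval -0.44 to 0.14, adjusted p = 0.696). H3f3b ran from 471 over 600 to 682 CPM in WT-H3.3 and from 444 over 527 to 747 CPM in H3.3K27M, a log2 difference of -0.10 (-0.35 to 0.16, adjusted p = 0.783). Among the chaperones the estimates lay between -0.19 for Asf1a (-0.45 to 0.06) and 0.09 for Cabin1 (-0.22 to 0.41). Atrx had the widest interval, -0.56 to 0.27 around -0.15. Replicate numbers paired these lines, and a replicate block left 0 members and 32 genes passed against 2 genes without it.

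H3.3K27L and GSK343 likewise gave no call against the untreated WT-H3.3 line, where 8.14% and 0% of genes passed (edgeR; for GSK343 DESeq2 also called 0 genes, and 678 had an unadjusted p under 0.05). In H3.3K27L the largest estimate was for Atrx, 0.59 (0.16 to 1.01, adjusted p = 0.0815), which was 0.39 (adjusted p = 0.217) without the 68378-count library. The next was for Asf1b, -0.31 (-0.58 to -0.04, adjusted p = 0.148), where the genes of its chromosome, 8, had a median of -0.214. Without replicate 1 at 72 h, which leaves that time to the 68378-count library and its Asf1b count of 0, the fit gave Asf1b a call at -3.26 (adjusted p = 0.0106), and without the 68378-count library it gave -0.27 (0.106). In GSK343-treated cells Atrx was again the farthest from zero at -0.43 (-0.85 to -0.01, adjusted p = 0.973). Atrx has a long transcript. Over 12810 genes the fold change ran with exon length at a Spearman's rho of 0.31 in H3.3K27L and -0.317 under GSK343. The part of length in the Atrx values was not tested. Atrx in H3.3K27L was called with no filter on low counts. It was also called with a replicate block after exchanging the H3.3K27L replicate numbers, an alternative added after seeing the data. H3f3a and H3f3b differed from WT-H3.3 by -0.05 and -0.13 in H3.3K27L and by -0.13 and 0.08 under GSK343.

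Between the mutants, Atrx was lower in H3.3K27M than in H3.3K27L, and it was the 1 member of 10 that passed, against 11.0% of all genes. Atrx ran from 251 over a median of 381 to 519 CPM in the 8 H3.3K27M libraries and from 346 over 525 to 730 CPM in 7 H3.3K27L libraries, so the groups overlapped. With all libraries the log2 difference was -0.73 (SE 0.21, -1.16 to -0.31, adjusted p = 0.0227). Without the 68378-count library, in which Atrx took 118 counts (1726 CPM on raw totals, exact 95% Poisson interval 1428 to 2067, counting error only), it was -0.54 and adjusted p was 0.0713. The call was lost in 7 of 32 fits that left out 1 library, namely replicate 1 of H3.3K27M (4, 24 and 72 h) and of H3.3K27L (4, 8 and 24 h) and replicate 2 of H3.3K27L (72 h), with adjusted p up to 0.0702. Ubn2 differed by -0.43 (-0.73 to -0.13, adjusted p = 0.0541), and its adjusted p in the fit with a replicate block was 0.0475, which makes 2 calls. Both genes have long transcripts and ran with the balance of long and short genes across ESC libraries (Pearson's r 0.89 for Atrx and 0.81 for Ubn2). Neither gene was taken out of the genes that define this balance. Over 12810 genes this contrast ran with exon length at a Spearman's rho of -0.133, and the part of length in both differences was not tested.

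Dox time was compared across the ESC arms. Pooling the 4 arms, late (24 and 72 h) against early (4 and 8 h) libraries gave 1 call of 10, Daxx, against 17.0% of genes. Daxx ran from 78.5 over a median of 113 to 130 CPM early and from 39.0 over 96.7 to 118 CPM late, the low end being the 68378-count library. The log2 difference was -0.19 (SE 0.064, adjusted p = 0.0433), the ranges overlapped, and the call held in 11 of 32 fits that left out 1 library. After 4, 8, 24 and 72 h H3f3a averaged 116 ± 19.2, 117 ± 23.1, 130 ± 27.95 and 84.0 ± 22.2 CPM (SD, n = 8 each), while H3f3b averaged 586, 565, 584 and 543 CPM. The late-against-early difference of H3f3a was -0.18 (-0.39 to 0.03, adjusted p = 0.224), and 72 h alone was not tested. No member passed for a time course that differed between lines (0 of 10 in H3.3K27M or H3.3K27L against WT-H3.3, and 0% of all genes by edgeR and 0 by DESeq2, with 81 and 177 of 14012 genes at an unadjusted p under 0.05). A test that called no gene at all cannot show that the time courses were alike.

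Among ESC libraries the levels of 9 of these genes ran along an axis of transcript length. It was taken as the mean log2 CPM of the longest twentieth of genes minus that of the shortest (415 genes each), and ran from -1.01 to 0.82 over 31 libraries. Members with long transcripts were higher along it, with Pearson's r and Spearman's rho of 0.92 and 0.88 for Cabin1, 0.89 and 0.88 for Atrx, 0.81 and 0.85 for Ubn2 and 0.72 and 0.73 for Ubn1. Of those with shorter transcripts, 4 ran the other way, at -0.89 and -0.86 for Asf1a, -0.70 and -0.70 for H3f3a, -0.68 and -0.69 for H3f3b and -0.48 and -0.60 for Asf1b. Length alone did not order the members: Hira, with 5277 exon bases, stood at -0.61 and -0.57, and Daxx, with 3058, at -0.08 and -0.08. Members were not taken out of the genes that define the axis, Asf1b aside, which lies on chromosome 8. A member among the longest or shortest genes therefore adds to its own correlation. These are descriptions across libraries that share lines, times and kits. Pairs of members followed it, with r of 0.88 for Atrx with Cabin1 and -0.79 for Cabin1 with Asf1a. The 68378-count library lay at 1.88, outside the range of all others.

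The genes whose log2 CPM ran closest to a member over these 31 libraries, among 8947 genes, were picked by Pearson's r. For H3f3a they were Rpl15 (0.907), Tuba1b (0.903) and Med28 (0.899), and for H3f3b Snrpd1 (0.911), Bud31 (0.902) and Hnrnpc (0.902). For Asf1b the values were lower, with Cdkn2a at 0.780, Pfn2 at 0.764 and Aktip at 0.760.

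**Figure D2:**
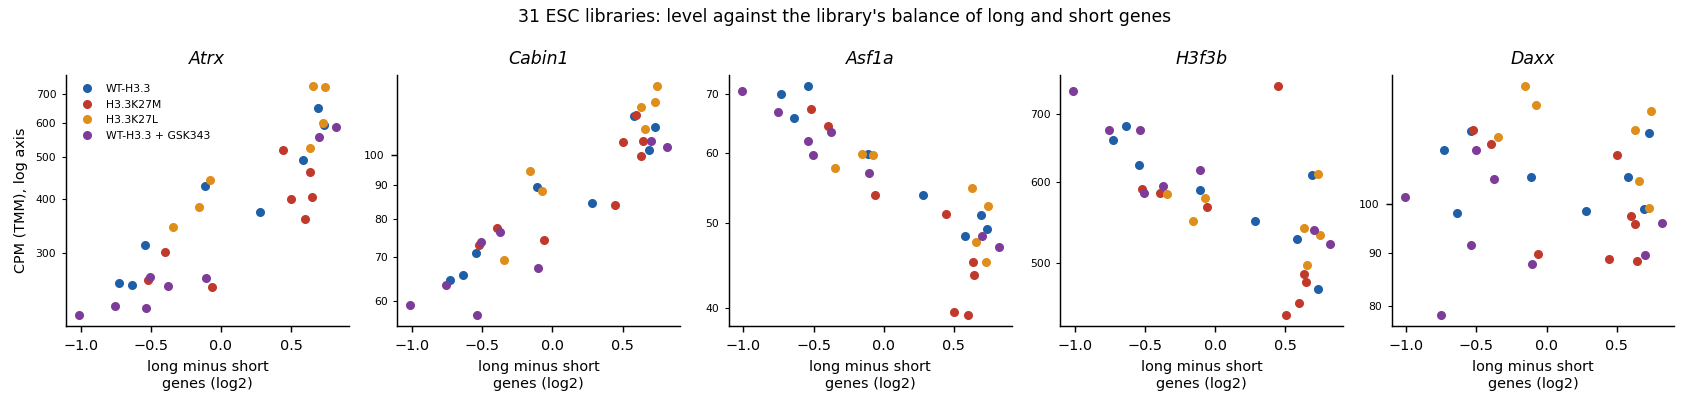
TMM-scaled CPM (log axis) of Atrx, Cabin1, Asf1a, H3f3b and Daxx in 31 ESC libraries against the long-minus-short gene axis (log2), 1 point per library. Atrx and Cabin1 climb along the axis, Asf1a and H3f3b descend, and Daxx stays flat.

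Differentiated cells were also compared with ESCs. The balance between the H3.3 genes shifted towards H3f3b. H3f3b was 587, 843 and 688 CPM at 24 h of Dox in RA (in the order WT-H3.3, H3.3K27M, H3.3K27L, as below) and reached 1364, 1489 and 1438 CPM at 72 h and 1340 and 1518 CPM in WT-H3.3 OPCs. H3f3a went the other way, with 87.8, 108 and 79.8 CPM at 24 h, 38.6, 52.5 and 37.3 CPM at 72 h, and 25.4 and 26.98 CPM in WT-H3.3 OPCs. All 3 libraries at 72 h and both WT-H3.3 OPC libraries lay outside the ESC ranges of both genes, while H3f3a in H3.3K27M OPCs (66.2 and 65.9 CPM) lay inside. How many other genes lay outside their ESC ranges was not counted. Against ESCs H3f3b was higher at 24 h (log2 0.34, SE 0.14, adjusted p = 0.0295, but 0.03 and 0.942 in the WT-H3.3 line alone), at 72 h (1.43, SE 0.12, adjusted p = 1.67e-11, 2.696-fold) and in OPCs (1.19, SE 0.12, adjusted p = 1.55e-10, 2.29-fold). H3f3a was lower at 72 h (-1.31, SE 0.18, adjusted p = 2.62e-07) and in OPCs (-1.40, SE 0.16, adjusted p = 3.02e-09), and at 24 h its difference was -0.26 (adjusted p = 0.149; -0.38 and 0.0249 with a replicate block). The OPC values pool both lines, and for H3f3a the WT-H3.3 line alone gave -2.18. In these bulk samples fewer cells that express a gene and less RNA per cell cannot be told apart, and cell type cannot be told apart from the day, kit or table a library came from.

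The share of H3f3b in the counts of the pair was on average 83.9% in ESCs, 88.4% at 24 h and 97.1% at 72 h of Dox in RA, and was 98.1% and 98.3% in the WT-H3.3 OPC libraries. The lowest share at 72 h in RA (96.6%) was above the highest of the 32 ESC libraries (92.0%). This ratio within a library does not depend on scaling between libraries. H3f3a-ps1 fell, and by more than H3f3a. It had 44.8 to 132 CPM in ESCs, 6.91 to 12.8 CPM at 24 h in RA and 1 to 2 counts (0.270 to 0.544 CPM) at 72 h. The 4 OPC libraries had 0 counts, which allow up to 0.242 to 0.400 CPM (3 counts). In H3.3K27M OPCs H3f3a itself lay inside its ESC range. In ESCs H3f3a-ps1 held 0.397 to 1.10 counts per H3f3a count in the 31 deeper libraries. In RA it held 0.0786 to 0.118 at 24 h and 0.00725 to 0.0104 at 72 h. Over the ESC libraries the ratio of H3f3a-ps1 to H3f3a averaged 0.596, 0.830, 0.813 and 0.865 at 4, 8, 24 and 72 h of Dox (n = 8 each). The last mean includes the 68378-count library, and this course was not tested. Whether the H3f3a-ps1 counts are its own transcripts, H3f3a reads placed on it or reads of the tagged H3.3 copy cannot be told apart here.

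**Figure D3:**
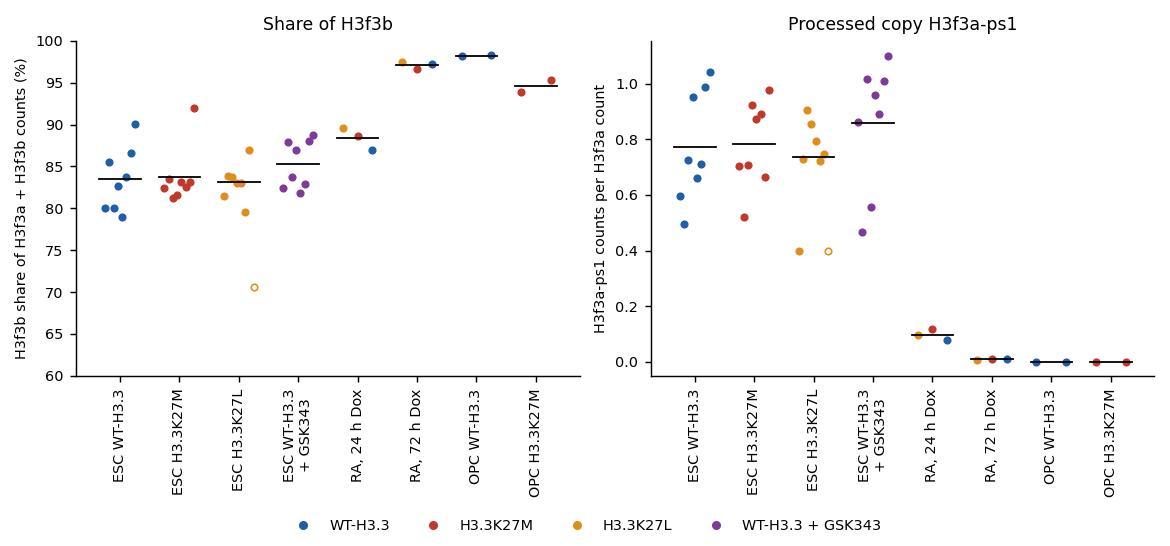
Left, H3f3b counts as a percentage of H3f3a plus H3f3b counts in each library (axis from 60 to 100); right, H3f3a-ps1 counts per H3f3a count. Points are libraries by cell type, line and Dox time. The mean share is 83.9% in ESCs and 97.1% at 72 h in RA, and it is lower in H3.3K27M OPCs (93.9% and 95.3%) than in WT-H3.3 OPCs.

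Differences of the other members between cell types are read against the whole table: 68.7% of 16354 genes passed in RA at 24 h against ESCs, 74.7% at 72 h and 84.6% in OPCs, so a call by itself sets no gene apart. The share of all genes with levels outside their ESC range was not counted, so such levels set no member apart either. Of the 9 members off chromosome 8, 6 passed at 24 h, 8 at 72 h and 6 in OPCs, shares of the same order as these backgrounds. The study left chromosome 8 out because it may be duplicated in the lines, and Asf1b, which lies there, was tested in a fit that kept it.

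Within the HIRA complex the 4 subunits moved apart. UBN1, one of the H3.3-binding subunits, had the largest rise of any member: 107, 120 and 100 CPM at 24 h of Dox in RA (WT-H3.3, H3.3K27M, H3.3K27L), 290, 258 and 325 CPM at 72 h, and 549 and 518 CPM in WT-H3.3 OPCs, against 34.5 to 70.9 CPM in ESCs. No library of either cell type overlapped the ESC range, and Ubn1 was higher by 0.99 (SE 0.10, adjusted p = 1.69e-09), 2.46 (SE 0.09, adjusted p = 8.77e-20, 5.48-fold) and 3.19 (SE 0.09, adjusted p = 1.12e-23, 9.11-fold). Its paralogue Ubn2 stayed at 69.2 to 109 CPM in RA and 65.2 and 69.6 CPM in WT-H3.3 OPCs, and its difference was 0.36 at 24 h (adjusted p = 0.0388), 0.01 at 72 h (-0.33 to 0.34) and 0.02 in OPCs (-0.28 to 0.31). The count ratio of Ubn1 to Ubn2 was thus 0.560 to 1.14 in the 31 ESC libraries, 0.981 to 1.28 at 24 h, 3.43 to 4.64 at 72 h and 7.88 and 7.95 in WT-H3.3 OPCs. Cabin1, the calcineurin-binding subunit, was 84.5, 98.8 and 102 CPM at 24 h, then 26.7, 29.1 and 27.3 CPM at 72 h, below every ESC library of at least 1000000 counts. It was lower than in ESCs at 72 h (-1.68, SE 0.21, adjusted p = 3.17e-08) and in OPCs (-0.71, SE 0.17, adjusted p = 2.60e-04). Hira, the scaffold of the complex, was within 17.5 to 27.7 CPM in all RA libraries and 20.3 and 21.6 CPM in WT-H3.3 OPCs, with differences of -0.30 (adjusted p = 0.0398), -0.41 (adjusted p = 0.0105) and 0.02 (adjusted p = 0.883). The last value pools both OPC lines, and in the WT-H3.3 line alone it was -0.50 (adjusted p = 0.019).

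Both ASF1 genes were lower than in ESCs in all 3 comparisons. Asf1b, the form tied to dividing cells, averaged 66.2 ± 9.02 CPM in ESCs (SD, n = 31). It was 24.3, 33.8 and 25.6 CPM at 24 h in RA, 37.1, 36.7 and 30.5 CPM at 72 h, and 10.5 and 11.3 CPM in WT-H3.3 OPCs, all below the ESC range. The differences were -1.19 (SE 0.16, adjusted p = 1.76e-07), -0.76 (SE 0.16, adjusted p = 1.33e-04) and -1.84 (SE 0.15, adjusted p = 2.60e-12). The OPC difference pools both lines, and in H3.3K27M OPCs Asf1b was 30.0 and 32.9 CPM. The sum of 24 cell cycle genes moved with it: 6523 to 8233 CPM in the 31 ESC libraries, 3473 to 4227 CPM in RA and 1171 and 1467 CPM in WT-H3.3 OPCs, and its part in the Asf1b level was not tested. Asf1a averaged 55.6 ± 9.20 CPM in ESCs, 31.3 to 43.8 CPM in RA and 31.1 and 34.1 CPM in WT-H3.3 OPCs, with differences of -0.46 (adjusted p = 0.00752), -0.56 (adjusted p = 0.00213) and -0.87 (adjusted p = 1.19e-06).

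Daxx and Atrx, whose proteins act together, differed from ESCs in opposite directions only at 72 h in RA. The difference between the genes was not tested. Daxx was 66.9, 75.0 and 61.1 CPM at 24 h, 144, 147 and 142 CPM at 72 h, and 63.7 and 56.1 CPM in WT-H3.3 OPCs, against 104 ± 12.7 CPM in ESCs (SD, n = 31). It was lower than in ESCs at 24 h (-0.64, SE 0.11, adjusted p = 8.17e-06), higher at 72 h (0.52, SE 0.10, adjusted p = 4.04e-05) and lower in OPCs (-0.62, SE 0.10, adjusted p = 1.25e-06). In OPCs the genes of its chromosome, 17, had a median of -0.556, and relative to it Daxx stood at -0.07. Atrx was 320, 350 and 287 CPM at 24 h, 164, 190 and 178 CPM at 72 h, and 300 and 314 CPM in WT-H3.3 OPCs, against 409 ± 155 CPM in ESCs. It was lower at 72 h (-1.28, SE 0.25, adjusted p = 4.96e-05), while -0.50 at 24 h (adjusted p = 0.0609) and -0.15 in OPCs (adjusted p = 0.517) did not pass.

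**Figure D4:**
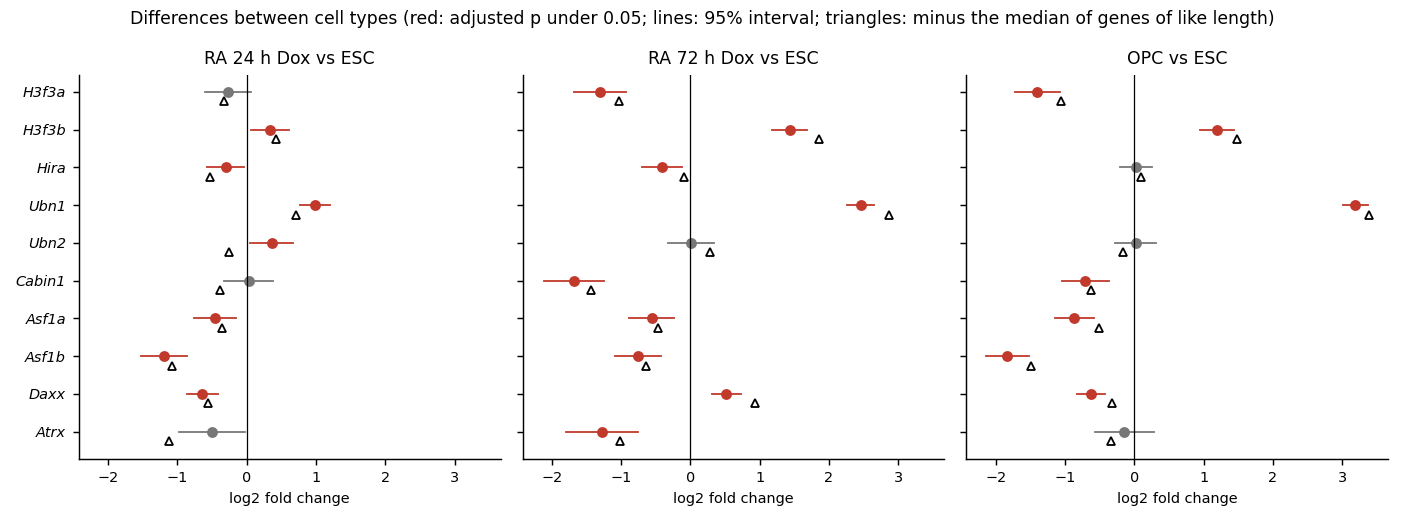
Log2 fold change of each gene against ESCs in RA at 24 h of Dox, RA at 72 h of Dox and OPCs, with 95% intervals; red marks an adjusted p under 0.05 and triangles the value minus the median of genes of like exon length. Ubn1 rises in each panel, to 3.19 in OPCs, and H3f3a and H3f3b lie on opposite sides of zero at 72 h (-1.31 and 1.43).

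Scaling and length bear on the smaller of these values. The median over all genes was -0.247 at 72 h and -0.264 in OPCs with TMM, and 0.190 and 0.127 with edgeR's RLE factors, and the share of calls that were higher at 72 h was 44.5% with TMM and 56.4% with RLE. Relative to the median, H3f3a stood at -1.06 and -1.13 (72 h, OPCs), H3f3b at 1.68 and 1.46, Ubn1 at 2.7 and 3.45, Cabin1 at -1.44 and -0.444, and Asf1b at -0.509 and -1.57. With RLE, Hira at 72 h was 0.04 (adjusted p = 0.819), turning its sign, Ubn2 at 72 h was 0.46 (adjusted p = 0.00849), and Hira and Ubn2 in OPCs were 0.42 each, with adjusted p = 0.00161 and 0.00541. With RLE the calls of Hira and Asf1a at 24 h, of Asf1a and Asf1b at 72 h and of Cabin1 in OPCs were lost, with values of -0.16, -0.32, -0.11, -0.34 and -0.31 and adjusted p of 0.290, 0.0667, 0.548, 0.0517 and 0.0656. The Hira calls at 24 and 72 h were also lost with DESeq2, with low counts left unfiltered, in the WT-H3.3 line alone and when a mean of 10 CPM was required. The calls of H3f3b, Hira, Ubn2 and Asf1a at 24 h were each lost when any 1 of the 3 RA libraries of 24 h was left out.

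Within RA-treated cells the same split appeared between 24 and 72 h of Dox, where 69.5% of 12233 genes passed. H3f3b (1.38, SE 0.15, 2.61-fold), Daxx (1.45, SE 0.13, 2.72-fold) and Ubn1 (1.76, SE 0.14, 3.38-fold) were higher at 72 h, with adjusted p of 4.40e-06, 6.54e-07 and 2.62e-07. H3f3a (-0.75, SE 0.14), Cabin1 (-1.43, SE 0.15) and Atrx (-0.49, SE 0.13) were lower, with adjusted p of 3.89e-04, 2.85e-06 and 0.00457. Asf1b was higher by 0.67 (SE 0.16, adjusted p = 0.00220), and Hira, Ubn2 and Asf1a differed by 0.18, -0.06 and 0.18. Short genes were higher as a class at 72 h (median 1.59 in the shortest twentieth, -0.726 in the longest), and the Atrx value minus the median of genes of like length was 0.23, of the opposite sign. Dox was added 24 h after differentiation began, and RNA was taken 72 h later. The sources used here give no such timing for the libraries of 24 h of Dox, so Dox time and differentiation time cannot be told apart.

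No member passed between a mutant line and WT-H3.3 in RA-treated cells, at 1 library per line and time. With 0.0163% of genes called for H3.3K27M and 6.96% for H3.3K27L, 0 of 10 passed in either, and the widest-lying estimates were 0.25 for H3f3a in H3.3K27M (-0.12 to 0.61, adjusted p = 0.904) and -0.28 for Ubn2 in H3.3K27L (-0.65 to 0.09, adjusted p = 0.392).

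In OPCs H3f3a, Hira and Asf1b were higher in H3.3K27M cells than in the WT-H3.3 line, and H3f3b was not. H3f3a was 25.4 CPM at 24 h and 26.98 CPM at 72 h in WT-H3.3 and 66.2 and 65.9 CPM in H3.3K27M. Hira was 21.6 and 20.3 CPM in WT-H3.3 and 47.2 and 38.4 CPM in H3.3K27M. Asf1b was 10.5 and 11.3 CPM in WT-H3.3 and 30.0 and 32.9 CPM in H3.3K27M. For each of the 3 the lines stood clear of each other at both times, which was also so for 76.3% of 12343 genes. The log2 differences were 1.40 for H3f3a (SE 0.15, 1.07 to 1.73, adjusted p = 2.11e-05, 2.64-fold), 1.10 for Hira (SE 0.18, 0.71 to 1.49, adjusted p = 3.88e-04, 2.14-fold) and 1.59 for Asf1b (SE 0.18, 1.19 to 1.99, adjusted p = 4.00e-05, 3.01-fold). All 3 calls held without any 1 library. H3f3b was 1340 and 1518 CPM in WT-H3.3 and 1019 and 1348 CPM in H3.3K27M, with overlap, and differed by -0.21 (-0.55 to 0.13, adjusted p = 0.281).

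Of the 9 members off chromosome 8, 5 passed, where 51.5% of 12467 genes did. The other calls were smaller: Atrx 0.45 (381 and 424 against 300 and 314 CPM, adjusted p = 0.0107), Cabin1 0.44 (66.1 and 58.4 against 51.6 and 44.8 CPM, adjusted p = 0.0308) and Daxx 0.40 (77.1 and 73.9 against 63.7 and 56.1 CPM, adjusted p = 0.0313). Cabin1 and Daxx missed the threshold with DESeq2 (adjusted p = 0.0633 and 0.0672). Without 1 library the Atrx call was lost for WT-H3.3 24 h (0.0844), the Cabin1 call for WT-H3.3 72 h and H3.3K27M 24 h (0.169 and 0.167), and the Daxx call for these and WT-H3.3 24 h (0.178, 0.116 and 0.0564). Ubn1 (-0.13, -0.41 to 0.14), Ubn2 (0.17, -0.14 to 0.48) and Asf1a (-0.20, -0.57 to 0.17) did not pass. The count ratio of Asf1b to Asf1a was 0.338 and 0.331 in WT-H3.3 and 1.20 and 1.12 in H3.3K27M, and the H3f3b share was 93.9% and 95.3%. The summed H3f3a and H3f3b level was 1366 and 1545 CPM in WT-H3.3 and 1085 and 1414 CPM in H3.3K27M.

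**Figure D5:**
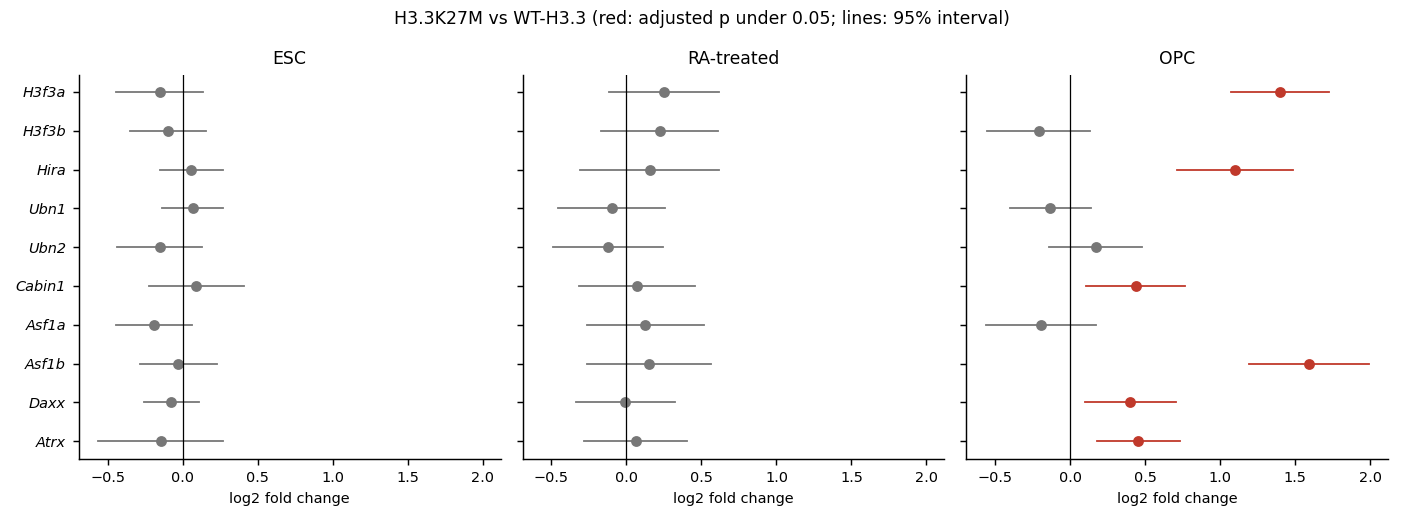
Log2 fold change of H3.3K27M against WT-H3.3 for each gene in ESCs, RA-treated cells and OPCs, with 95% intervals; red marks an adjusted p under 0.05. H3f3a, Hira and Asf1b lie between -0.15 and 0.25 in ESCs and RA-treated cells and at 1.40, 1.10 and 1.59 in OPCs.

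The 2 OPC lines also differed in marker genes. The sum of 24 cell cycle genes was 1171 and 1467 CPM in WT-H3.3 and 3760 and 4040 CPM in H3.3K27M, with all 21 tested genes higher, where 51.5% of all genes passed in either direction (median 1.61; Top2a 2.27, Ccnb1 1.81, Cdc6 1.96). The sum of 6 fibroblast markers was 555 to 605 CPM in WT-H3.3 and 8.22 to 13.9 CPM in H3.3K27M, that of 8 OPC markers 514 to 545 and 1625 to 1860 CPM, that of neuron markers 164 to 189 and 36.8 to 49.6 CPM, that of 7 extraembryonic endoderm markers 100.4 to 121 and 20.8 to 22.9 CPM, and that of 5 astrocyte markers 831 to 835 and 846 to 1187 CPM. These sums hide members that went the other way: of the OPC markers 5 were higher and Pdgfra (-4.79) and Sox10 (-2.88) lower, and of the astrocyte markers 2 were higher and Gfap (-7.56), Aqp4 (-2.14) and Aldh1l1 (-1.79) lower. Of the 4 tested neuron markers 3 were lower and Rbfox3 (2.02) was higher. All 6 tested endoderm markers were lower (median -4.04; Ttr -4.85, Gata6 -3.71, Foxa2 -2.49). The part of cell cycle and cell make-up in the H3f3a, Hira and Asf1b differences was not tested. Reads of the tagged H3.3 copy cannot be told apart from those of the cell's own H3.3 genes. Their part in the H3f3a difference and in the H3f3b share was not tested either. The study's methods speak of biological replicates made weeks apart, and the titles number the OPC libraries of 72 h as 1 and those of 24 h as 2, so replicate and Dox time, like line and clone, cannot be told apart.

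The difference between OPCs and ESCs in the H3.3K27M effect was itself tested, in one fit of all cell types. It was 1.56 for H3f3a (SE 0.29, adjusted p = 2.16e-04), 1.05 for Hira (SE 0.23, adjusted p = 9.97e-04) and 1.65 for Asf1b (SE 0.28, adjusted p = 4.67e-05), and did not pass in the other 7, where 21.6% of 16354 genes did. Daxx came closest at 0.48 (0.10 to 0.87, adjusted p = 0.0687), and it passed with DESeq2 (0.00415), when a mean of 10 CPM was required (0.0251) and without the 68378-count library (0.0366). The same contrast between RA-treated cells and ESCs gave 0 of 10, with 0.00611% of genes called, and the largest estimate was 0.46 for H3f3a (-0.15 to 1.06).

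Other genes of histone supply were also counted in the OPC comparison, as lists chosen by function. Of the 21 tested genes of histone chaperones and supply, 15 were higher in H3.3K27M OPCs and 0 lower (median 0.796, all genes 0.000630), where 51.5% of all genes passed. The lowest adjusted p were those of Nasp, the H3-H4 storage chaperone (1.44), Mcm2, the helicase subunit that binds H3-H4 (1.15) and Hjurp, the chaperone of CENP-A (1.23). Of 20 tested partners and readers of H3.3, 10 were higher and 2 lower (median 0.405), among them Uhrf1 (2.02) and the PRC2 enzyme Ezh2 (1.60), against Chd2 (-1.84) and Morc3 (-0.60). Of 9 other variant histones 7 were higher and 2 lower (median 1.55), with H2afx (1.83) and the centromeric Cenpa (1.76) against the linker histone Hist1h1c (-2.49) and H2afj (-0.74). In ESCs, with 0.0143% of all genes called, 0 of the genes of all 3 lists passed between H3.3K27M and WT-H3.3 (medians -0.00229, -0.0475 and 0.0730). Against ESCs, where 84.6% of all genes passed in OPCs and 74.7% at 72 h in RA, OPCs had 5 chaperone and supply genes higher and 15 lower (median -1.14), and RA-treated cells at 72 h 6 higher and 13 lower (median -0.758). The other variant histones had 5 higher and 4 lower in OPCs (median 0.637) and 5 higher and 1 lower at 72 h (median 0.783).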

How the data were processed

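The authors deposited raw read counts per gene for 42 RNA-Seq libraries in 3 tables (ESC, RA, OPC); single-end reads had been aligned with STAR 2.7.1 to mm9, allowing up to 10 mismatches, and no normalisation was applied to these counts. Libraries came from a 3′-end or a whole-transcript kit, not given per library in the sources used here, and kit and read mapping can change a gene's count through its length and its copies. The 113 ChIP-seq samples were not analysed here. Columns were matched to samples by line, Dox time and replicate, and OPC columns by line and time.

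Counts were tested with edgeR 4.0.16 (R 4.3.3, limma 3.58.1): TMM scaling, filterByExpr, glmQLFit and glmQLFTest, with Benjamini-Hochberg adjustment over all genes of a fit and an adjusted p under 0.05 as a call. There were 16 comparisons in 4 fits (ESC, RA, OPC and all cell types), each contrast averaging over Dox times unless it names one. In RA the Dox time was a term, where the study pooled the times; the OPC fit had the line alone. RA and OPC groups hold 1 library per line and time. Chromosome 8 was left out as in the study (2532 genes, 5.85% of counts), and Asf1b was read from the same fits with it kept. Positions were read for 32589 of 55471 genes, holding 98.2% of counts, from the NCBIM37 annotation. The fits were tested on simulated data. Figures and joins used Python 3.11.15, pandas 2.3.3, NumPy 2.4.6 and Matplotlib 3.10.9.

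The genes and lists were chosen with earlier results of these data known. The text names the 10 genes, up to 3 called genes per direction with the lowest adjusted p from each list of other genes, and the 3 genes of highest Pearson's r with H3f3a, H3f3b and Asf1b. The methods state biological replicates made weeks apart. In RA each line and time has 1 library. OPC titles number the 72 h libraries 1 and the 24 h libraries 2, but all 4 columns carry 2, so no OPC number was used. P-values in RA and OPCs measure the spread between these libraries only. No pair of libraries agreed within sampling noise (lowest chi-square per gene 1.85 over 861 pairs). Replicate numbers paired H3.3K27M with WT-H3.3 ESCs (correlation of replicate differences 0.618, 0.717, 0.609 and 0.713 at 4, 8, 24 and 72 h over 8416 genes). For H3.3K27L with WT-H3.3 the correlations were -0.599, -0.710 and -0.681 at 4, 8 and 24 h, so the numbers ran crossed, and 0.261 at 72 h. For GSK343 with WT-H3.3 they had no steady sign (0.00548, -0.303, -0.464 and 0.587).

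Alternatives were a 2-fold minimum, DESeq2 1.42.0, RLE factors, no filter on low counts, a mean of at least 10 CPM, chromosome 8 kept, a replicate block, the compared libraries alone, the WT-H3.3 line alone, pooled RA times, no library under 1000000 counts, leaving out each library, and subtracting the median of the chromosome or of genes of like length (20 bins). Intervals are 95% and, for counts, cover counting error only.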

Additional observations from a re-analysis of the deposited data

Results flagged for a closer look

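Across 40 groups of 8 ESC libraries (10 genes in 4 arms), 7 values lay apart from the rest of their group by Dixon's 95% criterion, and chance gives about 1 in 20. Of these, 6 came from the H3.3K27L library of 68378 counts at 72 h, replicate 2: H3f3b at 312.3 CPM (next library 496.9), Hira at 13.01 (26.99), Daxx at 39.04 (99.18), Atrx at 1536 (730.1), Asf1a at 26.03 (45.07) and Asf1b at 0 (46.10). A count of 0 for Asf1b there allows up to 43.9 CPM, and the Hira, Daxx and Asf1a values rest on 1, 3 and 2 counts. The remaining value was Asf1b in H3.3K27M ESCs at 4 h, replicate 2, at 46.11 CPM with the next library at 62.86.

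The H3.3K27M effect differed between OPCs and ESCs for 3 genes in the fit of all cell types (edgeR): by 1.56 for H3f3a (adjusted p = 2.16e-04), by 1.05 for Hira (adjusted p = 9.97e-04) and by 1.65 for Asf1b (adjusted p = 4.67e-05). In each, the 2 H3.3K27M OPC libraries were above both WT-H3.3 OPC libraries (2 of 2 times, log2 differences of 1.37 and 1.27 for H3f3a, 1.11 and 0.91 for Hira and 1.47 and 1.499 for Asf1b). Over all genes 21.6% of 16354 passed this test, and the OPC lines stood clear of each other in 76.3% of 12343.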

How the results depend on the processing

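Counts of called members moved by over 1.5 times as follows. For H3.3K27M against H3.3K27L ESCs the count of 1 became 0 with a 2-fold minimum, with the compared libraries alone and without libraries under 1000000 counts, and 2 with no filter, with chromosome 8 kept, with the replicate block and with that block after exchanging the H3.3K27L numbers (an alternative added after seeing the data). Late against early Dox went from 1 to 0 with a 2-fold minimum and with DESeq2, and with no filter Atrx was called (0.27, adjusted p = 0.0184) in place of Daxx (adjusted p = 0.221). H3.3K27L against WT-H3.3 went from 0 to 1 with no filter and with the exchanged replicate block, and GSK343 from 0 to 1 with no filter (Atrx each time). H3.3K27M against WT-H3.3 OPCs went from 5 to 2 with a 2-fold minimum and to 3 with DESeq2 and with no filter. Against ESCs, RA at 24 h went from 6 to 0 with a 2-fold minimum and to 3 in the WT-H3.3 line alone, RA at 72 h from 8 to 5 and OPCs from 6 to 3 with a 2-fold minimum. Smaller moves with RLE were 6 to 4 at 24 h, 8 to 7 at 72 h and 6 to 7 in OPCs, and Daxx took the OPC-minus-ESC count from 2 to 3 in 3 alternatives. Asf1b passed in 6 of 16 comparisons, in 4 with a 2-fold minimum and in 5 with RLE factors. Leaving out 1 library gave 0 to 2 calls for H3.3K27L against WT-H3.3, for H3.3K27M against H3.3K27L and for late against early Dox, 3 to 5 for OPCs, 2 to 6 for RA at 24 h and 7 to 8 at 72 h against ESCs, and 5 to 6 for RA at 72 h against 24 h. The cause of these moves was not tested.

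Signs turned in 5 cases where the main or the alternative value was called; turns between uncalled values are not listed: Atrx in RA at 72 h against 24 h (0.23) and Ubn2 in RA at 24 h against ESCs (-0.26) after subtracting the median of genes of like length, Hira in RA at 72 h against ESCs with DESeq2 (0.0386) and RLE (0.0418), and Hira in OPCs against ESCs in the WT-H3.3 line alone (-0.50, adjusted p = 0.019). The replicate block also made a call of H3f3a in RA at 24 h against ESCs (-0.38, adjusted p = 0.0249) and, these and Ubn2 between the mutants aside, changed no call of a member. Over all genes, calls for H3.3K27M against WT-H3.3 ESCs were 2, and 12 with DESeq2, 425 with no filter, 32 with the replicate block, 1 without libraries under 1000000 counts, and 0 with at least 10 CPM and with the compared libraries alone. For RA-treated cells they were 2, and 27 with DESeq2, 129 with no filter and 0 with pooled Dox times, against 851 and 0 for H3.3K27L. In the fit of all cell types only the RA and OPC libraries were left out in turn; the ESC libraries were not run. Depth limits the 1 library of 68378 counts most.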

Other observations

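Among other genes of histone supply, differences between ESC arms were few. Between H3.3K27M and H3.3K27L ESCs, where 11.0% of all genes passed, 3 of 9 other variant histones were higher (H2afj 0.91, H1fx 0.56, H2afy2 0.52) and 1 of 21 partners and readers was lower (Pml -0.37). H2afj was also lower in H3.3K27L than in WT-H3.3, in ESCs (-0.82; 8.14% of genes passed) and in RA-treated cells (-1.01; 6.96%), where Dnajc9, a co-chaperone of H3-H4, was higher (0.71). Between 24 and 72 h of Dox in RA, where 69.5% of all genes passed, 7 of 9 other variant histones were higher and 1 lower (median 1.19), while 3 of 21 partners and readers were higher and 12 lower (median -0.622).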
